A study of Mus musculus with 6 samples.

Results

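Circular RNAs (circRNAs) that were at least 2-fold higher in benzo[a]pyrene-treated than in control MOVAS cells are described here. Probes were selected on these measured values: a circRNA probe was included where the mean of the 3 BaP arrays exceeded the mean of the 3 control arrays by 1 or more on the log2 scale and the lowest BaP array lay above the highest control array. In the authors' value table of 14218 circRNA probes, 292 met both conditions, or 2.05% of the table. Since the rule uses the difference between BaP and control arrays, that difference is described for these probes and not tested. MOVAS is a line of smooth muscle cells from mouse aorta. The treatment, benzo[a]pyrene (BaP), belongs to the polycyclic aromatic hydrocarbons, which form when organic matter burns incompletely, as in tobacco smoke. The 3 control samples received vehicle, the 3 treated samples received BaP, and all 6 were grown in serum-containing medium, with dose and exposure time not given in the labels used here. Total RNA was digested with RNase R, labelled with Cy3 and hybridised to 6 single-colour arrays, 1 per sample.

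A circRNA forms when the splicing machinery joins a downstream donor site to an upstream acceptor site, which closes 1 or more exons or an intron into a ring. Without free ends the ring resists exonucleases such as RNase R and is usually long-lived in cells. An array probe for a circRNA typically spans the back-splice junction, which the linear transcript of the same gene lacks. BaP binds the aryl hydrocarbon receptor, a ligand-activated transcription factor, and its oxidised metabolites form adducts with DNA. No host gene or sequence is paired with a circRNA probe in the deposited files, so the circRNAs appear by array probe ID and carry no gene function here. The array has 50 mRNA probes, 44 of which could be matched to a gene symbol. None of the 8 smooth muscle markers looked for is among those 44, nor is any of 6 macrophage, 4 endothelial and 4 fibroblast markers, so the cell type could not be checked against its markers. Of 13 genes of the aryl hydrocarbon receptor pathway, 1 is among the matched probes, Gsta4, a glutathione transferase. On a log2 scale relative to the 75th percentile of each array, the Gsta4 probe read -3.61, -3.37 and -3.13 in the controls. With BaP it read -3.31, -3.20 and -3.33, so the groups overlapped. The RNA had been digested with RNase R, an exonuclease that acts on RNA with free ends such as mRNA. These readings therefore do not show whether Gsta4 expression changed with BaP.

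Facts of the arrays bear on the values that follow. The median circRNA signal ranged from 35.9 to 58.3 between arrays, and 85.5% to 93.9% of the circRNA probes of the table were well above background on each. The first part of the barcode in the file headers divides the arrays into 2 sets, called slide sides here. Slide side 1 held all 3 controls together with BaP replicate 1, whereas slide side 2 held BaP replicates 2 and 3 alone. BaP replicates 1 and 2 lay close together, with a median absolute difference over all circRNA probes of 0.086 on the log2 scale, against 0.193 and 0.180 between BaP replicate 3 and each of them, and 0.110 to 0.156 between controls. With BaP replicates 1 and 2 averaged to 1 sample the rule gave 299 circRNAs, 276 of them among the 292. Averaging could not make the groups overlap for any of the 292, so only the size of the difference could remove one. The labels call the samples biological replicates without saying whether they came from separate cultures, so the spread between them may be technical, and its precision is limited by the 3 arrays per group.

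By the flag of the scanner software, each of the 292 raised circRNAs gave signal on at least 2 control arrays. All 292 were well above background by this flag on each of the 3 BaP arrays, and 286 were so on each of the 3 control arrays as well. The other 6 were well above background on 2 of 3 control arrays, with control replicate 3, the array of lowest median signal, as the one below in all 6 cases. None was well above background on no control array, while 713 of the 14218 probes of the table were. By this flag no raised circRNA of the value table went from undetected to detected. The same count was not made for the probes raised on other scales. Over all circRNA probes 82.4% were well above background on all 6 arrays, against 97.9% of the raised ones. The rule asks for a BaP mean at least 2-fold above control, which favours probes that are bright with BaP. Neither this share nor the lack of undetected controls is therefore an independent finding.

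A stricter yardstick gave another picture of the dim ones. The array carries 15 negative control probes, the highest of which read 84.7 to 134 in processed signal on the 6 arrays, against a median over these probes of 2.86 to 6.67. Of the raised circRNAs 127 (43.5%) exceeded the highest negative control probe on all 6 arrays, against 26.5% of all probes. On all 3 BaP arrays 238 did so, and 99 did so on no control array. Both held for 45, which lay within the range of the negative control probes in each control array and above it in each BaP array, as did 130 of all 14218 probes. The rule selects probes that are higher with BaP, so neither the share of 43.5% nor the count of 45 is an independent finding. For the 238 and the 99 the share over all probes was not counted, so neither can be called many or few. Different probes bind with different strength, so a dim probe need not mark a rare circRNA.

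Starting levels ran from close to the dimmest probes of the table to well below its brightest, at 4.31 and 18.25. The control mean of the raised circRNAs ran from 4.84 to 13.20 on the log2 scale of the value table, with a median of 7.10 and quartiles of 6.14 and 8.41, where the median of all probes was 6.09. With BaP the median of the raised circRNAs was 8.56, with quartiles of 7.56 and 9.96. When all probes were divided into 4 equal bins by control mean, the dimmest bin held 15 of the raised circRNAs, the next 54, the third 91 and the brightest 132. As shares of the probes in each bin these are 0.422%, 1.52%, 2.56% and 3.71%. In background-subtracted processed signal, scaled to the 75th percentile of each array, the same rule gave 2.78%, 3.12%, 3.29% and 4.84% from the dimmest to the brightest bin. The shares of the dimmest and the brightest bin lay much closer together on that scale. Across the 292 circRNAs the size of the difference rose weakly with the starting level. Pearson r was 0.21 and Spearman rho 0.19, values across probes read on the same 6 arrays. The starting level is the control mean, which is also subtracted in the difference, and the rule sets a lower limit on that difference. Both bear on these values, so they do not show whether the difference depends on the starting level. The same holds for the median differences by bin given below.

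**Figure D1:**
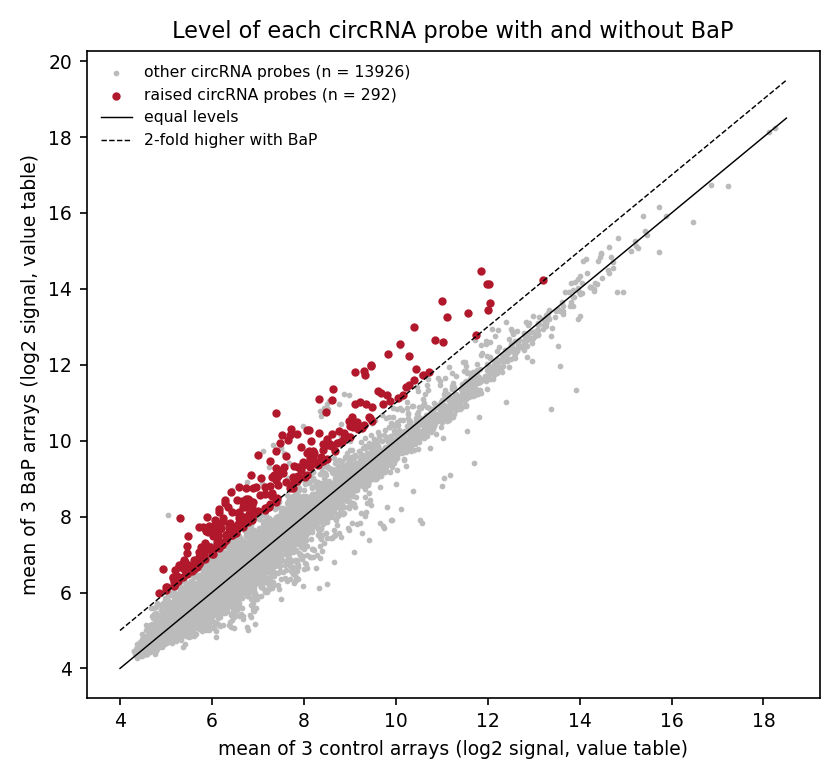
Mean log2 signal of the 3 control arrays (x axis) against that of the 3 BaP arrays (y axis) for each circRNA probe of the value table, with the 292 raised probes in red and the other 13926 in grey. The solid line marks equal levels and the dashed line a 2-fold higher BaP mean, and the raised probes lie above the dashed line from a control mean of 4.84 up to 13.20.

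On the scale of the value table most differences were between 2- and 3-fold. The median difference was 1.35 on the log2 scale, or 2.54-fold, with quartiles of 1.14 and 1.69 and a largest value of 3.34. A difference below 1.5 was found in 184 of the raised circRNAs, one of 1.5 to 2 in 68, and one of 2 or more, a 4-fold change, in 40. At least 2.5 was reached by 13 and at least 3 by 1. By starting level the median difference was 1.15 in the dimmest bin, 1.26 and 1.38 in the next, and 1.42 in the brightest. Over all probes of the table the median difference was -0.03. These sizes depend on the scale. In processed signal scaled to the 75th percentile of each array the median difference of the same circRNAs was 1.67, and it was not divided by bin there.

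The largest difference was that of the probe ASCRP4006334. Its log2 values in the value table were 7.51, 8.06 and 6.58 for control replicates 1 to 3, and 11.32, 11.22 and 9.63 for BaP replicates 1 to 3. Every BaP array lay above every control, BaP replicates 1 and 2 were nearly equal, and BaP replicate 3 was the lowest of the BaP arrays. The control mean was 7.38 ± 0.75 and the BaP mean 10.72 ± 0.95 (SD, n = 3 each), a difference of 3.34 or 10.1-fold. In processed signal of the scanner, without scaling between arrays, the same spots read 197, 282 and 53.6 on the control arrays, and 2904, 2646 and 954 on the BaP arrays. The scanner software gave these BaP signals errors of 290, 265 and 95.4, which cover the reading of a spot only.

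The next largest difference among the 292 raised circRNAs, also well above background on all 6 arrays, was that of ASCRP4011328. Its control replicates 1 to 3 read 7.56, 9.81 and 7.63 and its BaP replicates 1 to 3 read 11.64, 11.40 and 10.23. Here control replicate 2 stood over 2 log2 units above the other controls, and only 0.42 separated it from BaP replicate 3. The means were 8.33 ± 1.27 in control and 11.09 ± 0.75 with BaP (SD, n = 3 each), a difference of 2.75 or 6.75-fold. In processed signal the controls read 209, 929 and 129 and the BaP arrays 3499, 3213 and 1518.

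Other members mark the limits of the set. The circRNA with the widest distance between its groups read 7.47, 8.42 and 7.23 in the controls and 10.03, 10.13 and 10.31 in the BaP arrays, so that 1.62 separated the lowest BaP array from the highest control. Its 3 BaP arrays were close together and its difference was 2.45, or 5.48-fold. The circRNA with the brightest controls read 13.23, 13.23 and 13.15 in them and 13.65, 13.68 and 15.39 with BaP. Its controls hardly varied, BaP replicate 3 stood well above the other BaP arrays, and the difference was 1.04. The dimmest read 4.69, 5.09 and 4.75 in the controls and 6.15, 6.18 and 5.67 with BaP, a difference of 1.16. The circRNA with the least spread with BaP read 6.23, 6.22 and 6.21 in those arrays and 5.07, 5.42 and 5.11 in the controls, a difference of 1.02.

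The largest spread belonged to a circRNA whose inclusion rested on a single spot. It read 5.30, 5.35 and 5.27 in the controls and 5.64, 12.32 and 5.89 with BaP, a difference of 2.64. The scanner software marked its spot on BaP replicate 2 as a non-uniformity outlier, the only spot among all spots of the 292 circRNAs so marked. On that array the spot had a processed signal of 37084, and 3 of the 22 circRNA spots within 2 rows and 2 columns of it exceeded 10000, the highest at 59285, while none of them did on any other array. Without this spot its difference was 0.46, and 291 circRNAs met the rule. Apart from it, 1 circRNA had a BaP SD above 1. That one read 5.48, 5.51 and 5.41 in the controls and 7.67, 7.60 and 5.89 with BaP.

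**Figure D2:**
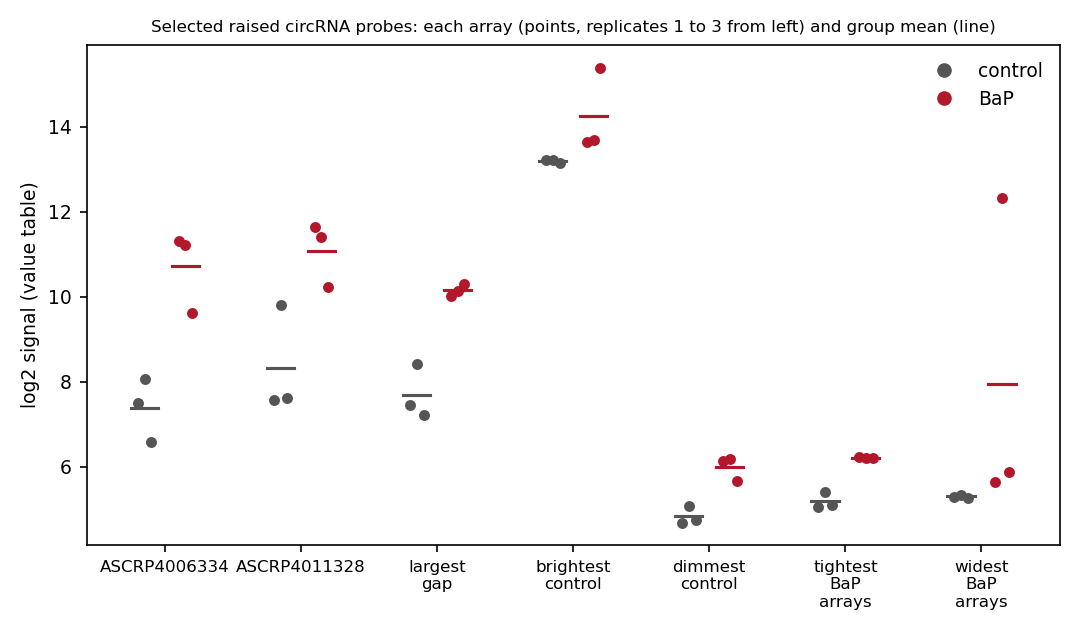
Log2 signal of the value table in each array for the 2 probes named in the text and 5 others given by their role, with controls in grey and BaP arrays in red, replicates 1 to 3 from left to right, and a line at each group mean (n = 3). ASCRP4006334 has all BaP points at or above 9.63, and the member with the widest BaP arrays has a single BaP point, at 12.32, far above the rest.

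The threshold cut through a continuous range of values. Just inside it a circRNA read 7.33, 7.66 and 7.19 in the controls and 7.97, 8.33 and 8.89 with BaP, a difference of 1.00. Just outside, a probe with no overlap of its arrays read 6.02, 5.93 and 5.53 in the controls and 7.17, 7.21 and 6.10 with BaP, a difference of 0.999. A difference below 1.1 was found in 57 of the 292. Beyond these, 1741 probes had all BaP arrays above all controls with a difference below 1. In total 2033 probes (14.3%) had BaP arrays above the controls without overlap, and 2405 (16.9%) had them below.

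Overlap removed 40 probes with a difference of 1 or more. In 38 of them BaP replicate 3 was the lowest BaP array, in 32 control replicate 2 was the highest control, and in 32 both held. The probe with the largest difference among these 40, at 3.00, read 4.98, 4.97 and 5.18 in the controls and 5.15, 13.94 and 5.06 with BaP. Its spot on BaP replicate 2 was also marked as an outlier by the scanner software.

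The distance between the groups was often small beside the size of the difference. From the lowest BaP array to the highest control array the median distance was 0.68 on the log2 scale, with quartiles of 0.43 and 0.87. It was at least 1 in 45 of the raised circRNAs, so that every BaP array was at least 2-fold above every control. In 11 it was under 0.1, and the smallest was 0.0015. Of those 11, control replicate 2 was the highest control in 11 and BaP replicate 3 the lowest BaP array in 10. The differences of the 45 well-separated circRNAs ran from 1.19 to 3.34 with a median of 1.62, and the 40 circRNAs with a difference of 2 or more had a median distance between groups of 0.53.

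Spread within each group was wider for the raised circRNAs than for the table as a whole. Their median SD over the 3 control arrays was 0.33, against 0.11 over all probes, and over the 3 BaP arrays 0.34 against 0.13. This was not particular to the raised circRNAs. The 128 probes that met the mirrored rule, with BaP at least 2-fold lower, had median SDs of 0.33 in the controls and 0.59 with BaP. In the 40 with a difference of 2 or more the median SD was 0.98 in the controls and 0.65 in the BaP arrays. In the 184 with a difference below 1.5 these were 0.27 and 0.30. The error that the scanner software assigns to a spot was close to 10.0% of its signal in the median raised circRNA on each array, a value that covers the reading of a spot and not labelling, hybridisation or culture.

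Control replicate 2 carried most of the control spread. It was the highest control array for 252 of the 292 raised circRNAs (86.3%), against 23.1% of all probes, and the lowest for 3. The median level of the raised circRNAs was 6.87, 7.47 and 6.87 on the control arrays, and 8.71, 8.60 and 8.50 on the BaP arrays, each in the order of replicates 1 to 3. Over all probes the medians of the 6 arrays ran from 6.09 to 6.10. Control replicate 2 exceeded both other controls by at least 0.5 for 126 raised circRNAs and by at least 1 for 50. Control replicates 1 and 3 did so by 0.5 for 0. These counts were not made over all probes. In the median raised circRNA control replicate 2 lay 0.51 above the mean of control replicates 1 and 3. BaP replicates 1 and 2 lay 1.54 above that mean. Measured along that line, control replicate 2 stood 36.1% of the way to BaP replicates 1 and 2, with quartiles of 21.9% and 46.3%. Over all 14218 probes the median was 24.9%, with much wider quartiles of -19.7% and 71.4%. The mean of control replicates 1 and 3 enters both parts of this ratio. For the raised circRNAs the rule also keeps control replicate 2 below every BaP array and asks for a large difference. The contrast with all probes is therefore no independent finding.

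The displacement of control replicate 2 was larger where the difference was larger. Among circRNAs with a difference below 1.5, control replicate 2 lay 0.40 above the other controls and 32.0% of the way to BaP replicates 1 and 2 in the median. Among those of 1.5 to 2 it lay 0.77 above and 40.6% of the way, and among those of 2 or more 1.69 above and 53.0% of the way. In all 40 of the last kind control replicate 2 was the highest control. The 3 kinds were divided by a difference that itself includes these arrays, so the order is a description. The mirrored rule, with BaP at least 2-fold lower, was met by 128 probes (0.900% of the table). Among these, control replicate 2 was the highest control for 57 (44.5%) and the lowest for 8. Its median position there was -8.84% of the way. Leaving out control replicate 2, the rule gave 368 raised circRNAs, which include 290 of the 292.

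**Figure D3:**
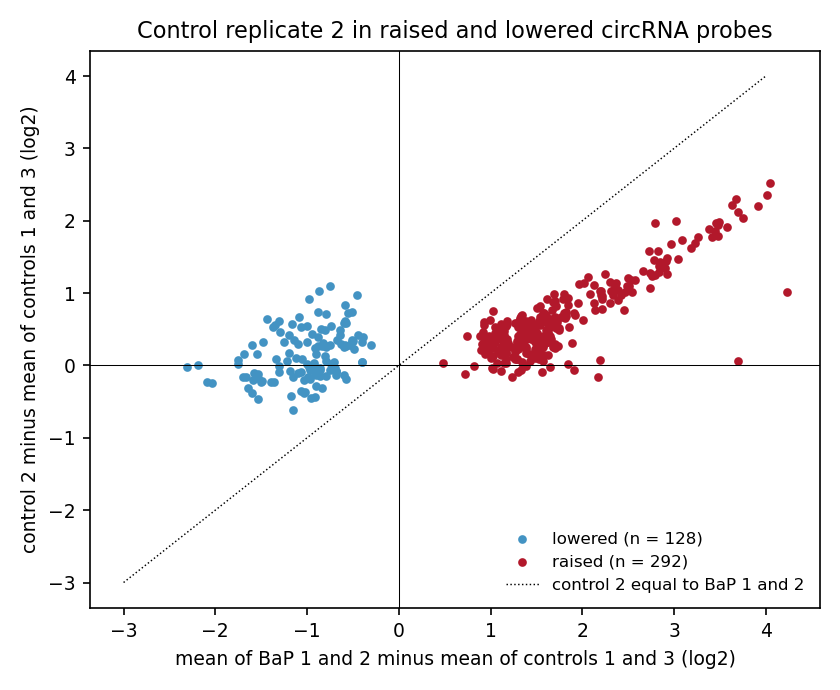
Control replicate 2 minus the mean of control replicates 1 and 3 (y axis, log2) against the mean of BaP replicates 1 and 2 minus the same control mean (x axis, log2), for the 292 raised probes in red and the 128 lowered probes in blue. Both axes share the control mean, and most red points lie above 0 and below the dotted line of equality, with a median of 0.51 on the y axis and 1.54 on the x axis.

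The 3 BaP arrays reached the raised level in different ways. Their median differences from the control mean were nearly the same, at 1.40, 1.36 and 1.41 in BaP replicates 1 to 3. For single circRNAs they were not. BaP replicates 1 and 2 were within 0.2 of each other for 189 of the 292 raised circRNAs, and BaP replicate 3 was within 0.2 of their mean for 40. The median absolute difference was 0.14 between BaP replicates 1 and 2, 0.60 between 1 and 3, and 0.52 between 2 and 3. BaP replicate 3 was the lowest BaP array for 149 raised circRNAs (51.0%), the highest for 129 (44.2%) and in between for 14. Over the whole table it was the lowest for 31.1% and the highest for 53.7% of probes.

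**Figure D4:**
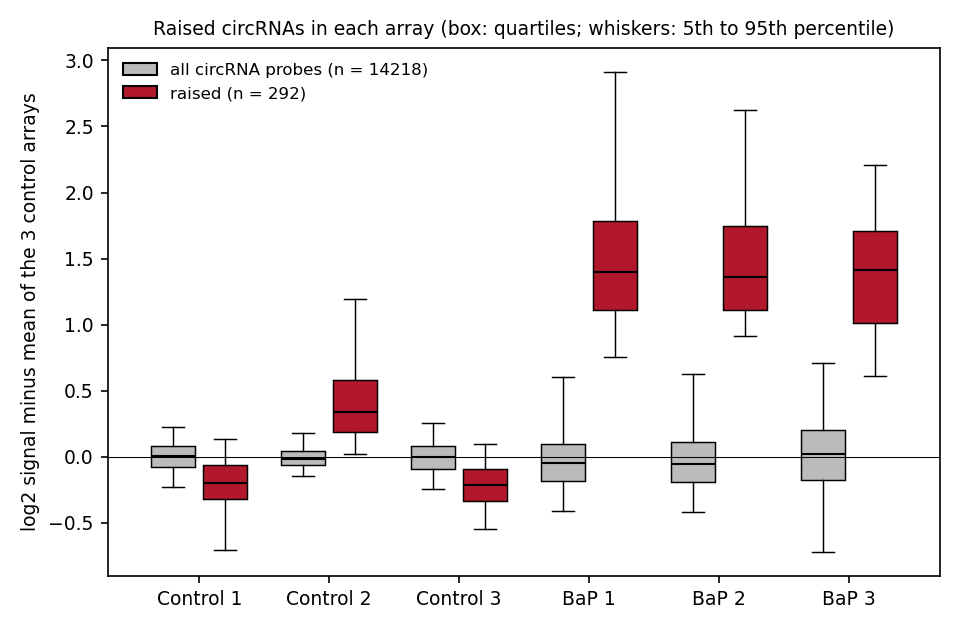
Log2 signal minus the mean of the 3 control arrays, for each array (x axis), over all 14218 circRNA probes (grey) and the 292 raised ones (red), with boxes at the quartiles, a line at the median and whiskers from the 5th to the 95th percentile. Raised circRNAs have medians of 1.40, 1.36 and 1.41 in BaP replicates 1 to 3, and control replicate 2 lies above the other controls with a median of 0.34.

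The raised circRNAs were sorted into a pair of patterns by whether BaP replicate 3 was the lowest or the highest BaP array. In the 149 where it was the lowest BaP array, the median differences from the control mean were 1.64, 1.53 and 1.02 in BaP replicates 1 to 3. In the 129 where it was the highest, they were 1.07, 1.16 and 1.68. The first pattern held 33 of the 40 circRNAs with a difference of 2 or more and the second 6. The first had the narrower distance between groups, with a median of 0.53 against 0.75, and started from a lower control level, with a median of 6.75 against 7.44. Control replicate 2 was the highest control in 134 of the 149 and in 109 of the 129. BaP replicate 3 lay over 1 below the mean of the other BaP arrays for 41 raised circRNAs and over 1 above it for 4. These patterns were divided on the measured values, which sets the order of the BaP arrays in each, and carry no test. The distance between groups is taken from the lowest BaP array, so the division itself bears on that distance too. Whether they are separate classes was not tested. Among the 128 probes of the mirrored rule, BaP replicate 3 was the lowest BaP array for 112 (87.5%) and the highest for 7.

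A 2-fold difference did not hold in each BaP array. Measured from the control mean, all 3 BaP arrays were at least 1 higher for 161 of the raised circRNAs, 2 of them for 95, and 1 of them for 36. BaP replicate 3 was the one under 1 for 71 raised circRNAs, BaP replicate 1 for 57 and BaP replicate 2 for 39, with some circRNAs counted under 2 arrays. Taking out the highest BaP array of each circRNA left a mean difference under 1 in 72 and under 0.5 in 2.

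**Figure D5:**
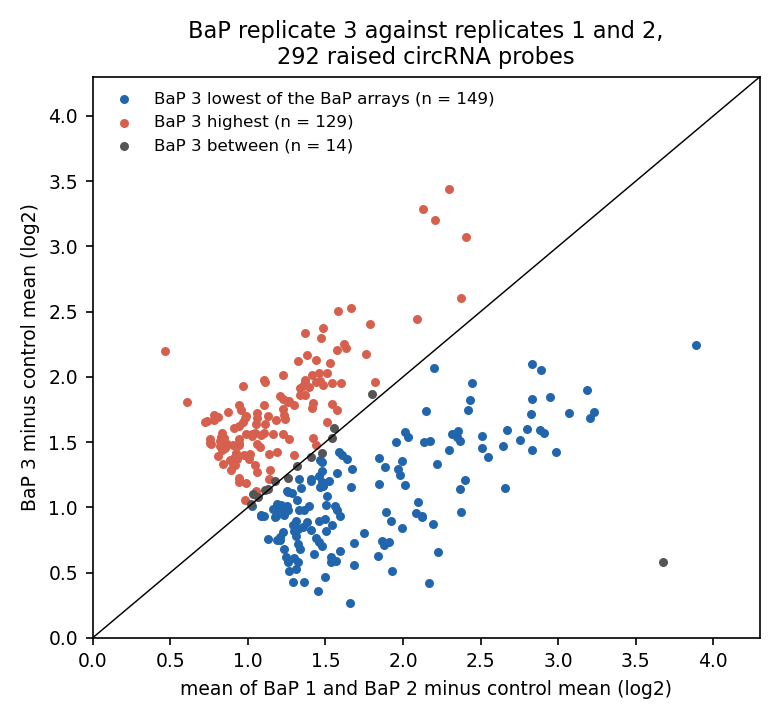
BaP replicate 3 minus the control mean (y axis, log2) against the mean of BaP replicates 1 and 2 minus the control mean (x axis, log2) for the 292 raised probes. Both axes share the control mean, the line marks equality, and the points lie on both sides of it, with 149 below in blue, where BaP replicate 3 was the lowest BaP array, and 129 above in orange, where it was the highest.

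Within the slide side that holds both groups, BaP replicate 1 against the 3 controls, the median difference of the 292 circRNAs was 1.40, against 1.35 over all arrays. Of the 292, 235 met the rule on those 4 arrays, and 57 had a difference below 1 there. The rule had already placed BaP replicate 1 above every control for all 292. The median was therefore bound to be above 0 there, and only the threshold of 1 could fail. The difference was 3.94 for ASCRP4006334 and 3.30 for ASCRP4011328 within that side. Across the surface of the array the raised circRNAs were spread over all parts, with 1.69% to 2.37% of probes raised in 4 bands of rows and 1.80% to 2.47% in 4 bands of columns. In processed signal of the same spots, scaled to the 75th percentile, 289 of the 292 met the rule, with a median difference of 1.67. The rule then gave 499 higher and 445 lower probes, against 292 and 128 in the value table.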

How the data were processed

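Values come from 6 Agilent arrays. Per the file headers, Feature Extraction 11.0.1.1 gave spot intensities on a linear scale, among them a processed signal with local background subtracted and spatial trends removed, an error per spot, and flags for spots well above background, saturated or outlying. A table of log2 values, deposited by the authors, covers 14218 of the 14236 circRNA probes on the array. Its columns have medians of 6.09 to 6.10 and ranked the probes almost as that array's median spot intensities did (Spearman rho of 0.999 to 1.00). The submitters' processing notes name limma, while the sources used here do not state how the table was normalized.

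The rule was applied to the value table with pandas 2.3.3 in Python 3.11.15, and figures were drawn with matplotlib 3.10.9. The circRNAs and lists were chosen with earlier results of these data known. Selection used the contrast itself, so no test was run. The counting was tested on simulated tables. By accession, 44 of 50 mRNA probes were matched to a symbol in a RefSeq gene table (GRCm38.p6). Probe IDs printed are those of the raised circRNA with the largest difference and of the next among raised circRNAs well above background on all arrays, and other circRNAs are given by role. The probe removed by overlap, the smallest distance between groups and the second largest BaP SD were chosen after their values were seen. Alternatives were other scalings of the processed signal, normexp background correction (offset 50) with quantile normalization in limma 3.58.1 of R 4.3.3 with outlier spots left out, other thresholds, filters, leaving out each array, and 1 slide side.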

Additional observations from a re-analysis of the deposited data

How the results depend on the processing

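The 292 raised circRNAs became 499 with the processed signal scaled to the 75th percentile, 583 with median scaling and 550 with quantile normalization, against 445, 397 and 368 lower probes. Normexp with quantile normalization gave 195, all among the 292, with 74 lower. A threshold of log2 of 1.5 gave 623 and one of 2 gave 40. Their median difference of 1.35 was 1.67 and 1.74 with the first 2 scalings and 1.15 with normexp, where 96 fell below 1. Leaving out single arrays gave 263 to 368 raised circRNAs and median differences of 1.262 to 1.503. In each case 245 to 290 of the 292 met the rule. The 292 were chosen without overlap, so leaving out an array could only take a circRNA below the size threshold. With the highest negative control probe as the limit, 99 rather than 0 were above it on no control array. The share over all probes was not counted for this limit, so 99 cannot be called many or few. Leaving out outlier spots gave 291, and averaging BaP replicates 1 and 2 gave 299, both chosen after seeing the data. No paired analysis was possible because the result comes from no test and the labels do not tie replicate numbers to a shared culture or batch. The cause of these shifts was not tested.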
